A study of Mus musculus with 12 samples.

Results

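The genes described here are 57 genes of the G2 phase and of mitosis, a list of cyclins and kinases, spindle checkpoint and anaphase proteins, centromere and kinetochore proteins, the chromosomal passenger complex, kinesins, spindle pole proteins, cytokinesis proteins and condensins. Each symbol was looked up in the annotation of the array, and a gene was represented by the probe set that names it alone and has the highest mean over the arrays. By this rule 56 of the 57 genes had a value, out of 19938 genes with such a probe set in the whole series, and Ccnb1 was not analysed here. All 56 also passed the filter on low values, which left 14993 genes for testing. The samples were antibody-secreting plasma cells sorted from mouse bone marrow 7 days into a recall response, with 1 expression array per sample. The 2 groups were Zbtb32-/- (genotype Zbtb32 -/-) and wild type (Zbtb32 +/+), with 6 arrays each. All cells came from spleens of CD45.2 mice immune to NP-CGG, a hapten on a carrier protein, that had been given to CD45.1 hosts, which then received the antigen again. The sort kept NP-binding CD138+ cells of donor origin that lacked B220, Ly6g and CD11b. The labels give neither the deleted stretch of Zbtb32 nor the age of the mice, nor whether several hosts were pooled for a sample. The recipients kept their own CD45.1 blood cells.

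Cells enter mitosis when cyclin-dependent kinase Cdk1, bound to cyclin A or B, is freed from inhibitory phosphorylation, and they leave it when the anaphase-promoting complex has its cyclins and securin destroyed. In between, condensins compact the chromosomes, kinetochores assemble on the centromeres and catch spindle microtubules, and the spindle checkpoint holds anaphase back until every kinetochore is attached. Most of these genes are transcribed late in the cell cycle, through promoters that carry a cell cycle homology region (CHR) and CCAAT boxes, and they are held silent in resting cells. Plasma cells arise from dividing plasmablasts and stop dividing as they mature, so transcripts of this kind mark recently divided or dividing cells. In sorted bulk RNA, fewer dividing cells and less of the transcript per cell cannot be told apart.

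Promoters of 46 of the 56 genes were listed in the RefSeq table used here (GRCm38.p6), each as 250 bases before and 50 bases after the annotated start, and for the 4 genes with several entries the first was read. The CHR motif TTTGAA was found on either strand in 31 of the 46 promoters (67.4%), against 17.9% of all 32851 promoters of the same length. CCAAT was present in 34 (73.9%), against 37.4% of all promoters, and occurred 2 or more times in 19 (41.3%), against 11.7%. A CHR together with 2 or more CCAAT boxes was found in 17 (37.0%), against 2.09%. Of 73 promoters of further mitosis genes, 46.6% had a CHR, 37.0% had 2 or more CCAAT boxes and 23.3% had both. For 41 promoters of DNA replication genes the same shares were 14.6%, 36.6% and 4.88%. Of the 31 promoters with a CHR, 28 had one that began within 50 bases of the start, which was so for 1624 of the 5878 promoters with a CHR in the whole table. The E2F core GCGGGAA was present in 3 of the 46 (6.52%), against 4.6% of all promoters and 16 of 41 (39.0%) among the genes of DNA replication. These letter matches describe the windows and do not show that a factor binds there.

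The promoters below belong to the genes with the smallest p of their subgroup in the genotype comparison, and motif content played no part in the choice. The median log2 difference between Zbtb32-/- and wild type was 0.28 over the 31 genes with a CHR and 0.28 over the 15 without. Each runs 5′ to 3′ on the strand of its gene, and capitals mark TTTGAA and CCAAT, or the reverse complement ATTGG, with no GCGGGAA in any of them. The sequence of Spc25 is chr2:69206164-69206463 (minus strand), that of Cdca8 chr4:124936868-124937167 (minus), that of Racgap1 chr15:99651607-99651906 (minus), that of Kif4 chrX:100625815-100626114 (plus) and that of Mad2l1 chr6:66534971-66535270 (plus).
Spc25: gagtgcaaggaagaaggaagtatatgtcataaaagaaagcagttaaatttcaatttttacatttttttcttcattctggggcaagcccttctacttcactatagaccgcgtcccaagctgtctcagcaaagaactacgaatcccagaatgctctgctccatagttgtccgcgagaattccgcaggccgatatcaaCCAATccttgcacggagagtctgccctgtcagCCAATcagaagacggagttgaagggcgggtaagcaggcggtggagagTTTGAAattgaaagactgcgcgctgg
Cdca8: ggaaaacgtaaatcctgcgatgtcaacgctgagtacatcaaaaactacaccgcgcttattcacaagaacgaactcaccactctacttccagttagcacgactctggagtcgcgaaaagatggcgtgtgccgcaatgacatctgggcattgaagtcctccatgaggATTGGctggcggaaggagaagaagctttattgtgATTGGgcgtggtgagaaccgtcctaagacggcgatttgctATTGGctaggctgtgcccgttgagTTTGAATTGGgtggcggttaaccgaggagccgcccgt
Racgap1: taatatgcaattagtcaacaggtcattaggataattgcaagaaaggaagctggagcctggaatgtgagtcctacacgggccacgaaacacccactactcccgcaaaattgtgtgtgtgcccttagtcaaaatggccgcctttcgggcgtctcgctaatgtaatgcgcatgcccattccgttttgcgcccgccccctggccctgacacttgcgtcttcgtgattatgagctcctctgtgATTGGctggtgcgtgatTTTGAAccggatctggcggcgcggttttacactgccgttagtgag
Kif4: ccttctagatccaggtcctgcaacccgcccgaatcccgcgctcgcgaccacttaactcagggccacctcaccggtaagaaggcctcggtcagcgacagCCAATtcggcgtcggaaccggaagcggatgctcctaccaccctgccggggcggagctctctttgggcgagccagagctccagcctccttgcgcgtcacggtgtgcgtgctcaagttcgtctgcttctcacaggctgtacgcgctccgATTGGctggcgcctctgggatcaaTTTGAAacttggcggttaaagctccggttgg
Mad2l1: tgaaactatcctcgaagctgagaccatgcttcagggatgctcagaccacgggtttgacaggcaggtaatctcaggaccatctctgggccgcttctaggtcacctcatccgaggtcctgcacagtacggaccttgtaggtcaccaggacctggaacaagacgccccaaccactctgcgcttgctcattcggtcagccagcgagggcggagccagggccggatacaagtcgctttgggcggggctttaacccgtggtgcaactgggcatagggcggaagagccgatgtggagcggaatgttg
In Spc25 the CHR begins at base 25 after the start, downstream of CCAAT boxes that begin at -55 and -23. Cdca8 has a CHR at base 14 and 4 inverted CCAAT boxes, the last of which overlaps the CHR. Racgap1 has its CHR at base 6 with an inverted CCAAT box at -12, and Kif4 has its CHR at base 20 with CCAAT boxes at -152 and, inverted, at -5. None of the 3 motifs was found in the Mad2l1 window. Foxm1, Tubg1 and Smc4 had the smallest p of the other subgroups.

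Each array gave 1 log2 value per probe set, which the authors had background-corrected, normalized and summarised by RMA. Array medians lay between 6.28 and 6.43, and array pairs correlated at 0.914 to 0.984 over probe sets, with wild-type replicates 2 and 6 lowest on average (0.933 and 0.938, against 0.945 or more for the others). The probe set of Zbtb32 had a lowest, median and highest value of 6.47, 6.54 and 6.73 in Zbtb32-/- arrays and 6.39, 6.68 and 6.88 in wild-type arrays. The difference was -0.11 (two-sided exact permutation p = 0.173), and since the deleted stretch is unknown, this probe set checks no label. Markers of plasma cells were present in all samples: the mean of 8 such genes lay between 10.45 and 11.05 in Zbtb32-/- arrays and between 10.34 and 11.14 in wild-type arrays, and Sdc1, which encodes CD138, ran from 10.70 to 11.25 and from 10.32 to 11.34 in the same groups.

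Mitosis transcripts were higher in the Zbtb32-/- arrays by their sample means, but no single gene passed the test across all genes. The mean of the 56 genes was 8.91 ± 0.10 in Zbtb32-/- cells and 8.61 ± 0.22 in wild-type cells on the log2 scale of RMA (± SD over 6 arrays). The difference of 0.30 had an SE of 0.10 and corresponds to 1.23-fold. Its lowest, median and highest array lay at 8.74, 8.96 and 8.99 in Zbtb32-/- cells and at 8.40, 8.54 and 8.97 in wild-type cells. The groups overlapped: wild-type replicate 3 lay among the higher Zbtb32-/- arrays, and Zbtb32-/- replicate 6 lay just below wild-type replicate 1. Each of the 6 Zbtb32-/- arrays exceeded the mean of the wild type and 2 lay above the highest wild-type array.

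Of the 56 genes, 55 had a positive difference (Zbtb32-/- minus wild type), and Cdc25b was the exception. With renewed quantile normalization 53 were positive (47.5% of all genes), and with median centring 54 (46.7%). With the values as deposited, the share of positive differences over all genes tested was 52.9%. The median difference was 0.29 over the 56 genes and 0.01 over all genes. The 56 genes were brighter than most, with a median level of 8.73, against 7.10 over all genes. A stricter filter (mean above the 50th percentile) kept 9969 genes, of which 64.2% were positive, with a median of 0.06. With limma, 0 of the 56 passed an adjusted p of 0.05, as did 0% of all genes, and the adjusted p of the 56 ran from 0.933 to 0.992. At an unadjusted p under 0.05 there were 19 positive and 0 negative members, against 2.83% and 1.45% of all genes. With the stricter filter 20 members were positive at that p, against 3.9% of the genes it kept. For 29 of the 56, every Zbtb32-/- value exceeded the mean of the wild type (8.02% of all genes), while Tubg1 was the only member whose 6 Zbtb32-/- values all lay above its 6 wild-type values (0.08% of all genes). The 95% interval of the difference excluded a 2-fold change in either direction for 51 of the 56 genes (91.1%), against 95.3% of all genes. The exceptions among the members were Racgap1, Prc1, Cenpe, Cenpn and Ttk. The count of 19 fell to 12 on leaving out any 1 of Zbtb32-/- replicates 1, 4 and 5 and wild-type replicate 6 (1.82% to 2.18% of all genes). It was 12 with renewed quantile normalization (1.95% of all genes), 3 in replicates 1 to 3 alone (1.22%) and 7 without wild-type replicates 2 and 6 (1.39%). It rose to 27 without wild-type replicate 3 (6.36% of all genes) and to 22 without Zbtb32-/- replicate 6 (4.84%). Because the genes were chosen with earlier results known, no p is given for their mean.

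**Figure D1:**
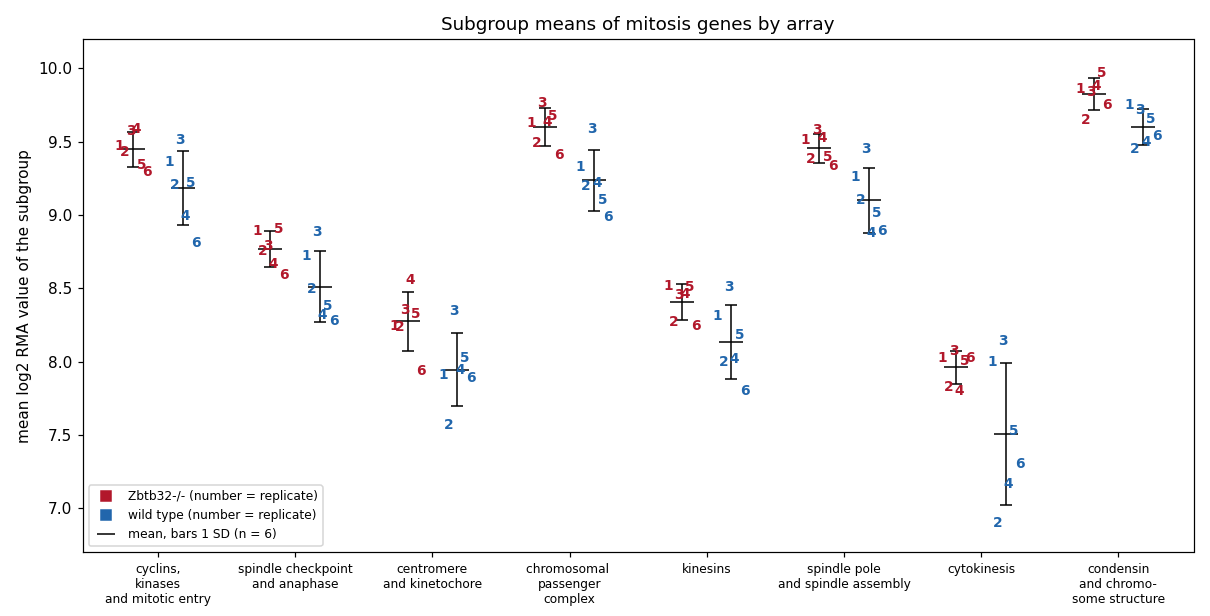
Mean log2 RMA value of each subgroup of mitosis genes (y axis) on each array, with Zbtb32-/- in red to the left of wild type in blue; the digits are replicate numbers, the bars the mean and 1 SD of 6 arrays. The wild-type arrays spread more widely, with replicate 3 on top of the wild-type values in 7 of the 8 subgroups, and cytokinesis shows the widest range, from 6.90 to 8.14.

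Cyclins, kinases and regulators of mitotic entry differed by 0.27 (SE 0.11). Their means were 9.45 ± 0.12 in Zbtb32-/- and 9.18 ± 0.25 in wild-type cells (SD, n = 6 each). Of 8 measured genes, 7 were positive and 3 had an unadjusted p under 0.05. For this and each subgroup below, the shares over all genes were 52.9% positive and 2.83% positive at that p. Foxm1, the transcription factor that drives many G2 phase genes, had a lowest, median and highest value of 9.21, 9.35 and 9.54 in Zbtb32-/- arrays, against 8.35, 8.90 and 9.36 in wild-type arrays. Its difference was 0.49 (95% interval 0.09 to 0.89), and wild-type replicates 6 and 4 held its low values. Cdk1, the kinase that starts mitosis, ran from 10.03 over a median of 10.33 to 10.49 in Zbtb32-/- arrays and from 9.20 over 9.87 to 10.37 in wild-type arrays. The difference of Cdk1 was 0.45 (0.08 to 0.82). Cdc25b, a phosphatase that activates cyclin-dependent kinases, overlapped fully, with 8.28, 8.56 and 9.11 in Zbtb32-/- and 8.31, 8.73 and 8.88 in wild-type arrays, and a difference of -0.03 (-0.38 to 0.33). The cyclin gene Ccna2 differed by 0.31 (0.04 to 0.59) and Ccnb2 by 0.25 (-0.06 to 0.57). The polo-like kinase Plk1, the phosphatase Cdc25c and Cks2, a small Cdk-binding subunit, differed by 0.20, 0.29 and 0.16, each with an interval that included 0. All 3 probe sets of Cks2 gave positive differences, of 0.16 to 0.22.

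Spindle checkpoint and anaphase genes differed by 0.25 (SE 0.11), at 8.77 ± 0.12 in Zbtb32-/- and 8.51 ± 0.24 in wild-type cells, and all 9 were positive. Mad2l1, which binds and restrains Cdc20 until kinetochores are attached, was the 1 gene here with an unadjusted p under 0.05. It ran from 10.68 over a median of 10.93 to 11.17 in Zbtb32-/- arrays and from 10.45 over 10.65 to 10.81 in wild-type arrays, a difference of 0.28 (0.04 to 0.52). The values of Bub3, a checkpoint protein of kinetochores, were 9.39, 9.52 and 9.76 (lowest, median, highest) in Zbtb32-/- and 8.79, 9.16 and 9.68 in wild-type arrays, with a difference of 0.30 (-0.01 to 0.62). Pttg1, the securin that keeps separase inactive, was nearly level, at 8.55, 8.61 and 8.70 in Zbtb32-/- and 8.55, 8.57 and 8.78 in wild-type arrays, a difference of 0.01 (-0.20 to 0.22) that was -0.07 with renewed quantile normalization. The checkpoint kinase genes Ttk and Bub1 differed by 0.49 and 0.16, and Bub1b, which encodes the checkpoint protein BubR1, by 0.34. Cdc20 and Ube2c, an activator and a ubiquitin-conjugating enzyme of the anaphase-promoting complex, differed by 0.25 and 0.15, and Espl1, the separase that cuts cohesin, by 0.29. The intervals of these 6 genes all included 0.

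Centromere and kinetochore genes had the largest subgroup, and all 11 were positive, 4 of them at an unadjusted p under 0.05. Their mean was 8.27 ± 0.20 in Zbtb32-/- and 7.95 ± 0.25 in wild-type cells, a difference of 0.33 (SE 0.13) that was 0.22 without wild-type replicates 2 and 6. Spc25 and Nuf2 belong to the Ndc80 complex, which holds microtubule ends. Spc25 was tight in Zbtb32-/- arrays (8.51, 8.62 and 8.70) and wide in wild-type arrays (7.72, 8.04 and 8.54), and only wild-type replicate 3 reached into the Zbtb32-/- range. Its difference was 0.52 (0.22 to 0.82). For Nuf2 the values were 7.68, 8.09 and 8.17 in Zbtb32-/- and 7.00, 7.58 and 7.94 in wild-type arrays, a difference of 0.48 (0.12 to 0.83). The other 2 subunits, Spc24 and Ndc80, differed by 0.37 (0.01 to 0.73) and 0.22 (-0.13 to 0.57). Cenpf, a large protein of the outer kinetochore, had its lowest value in Zbtb32-/- replicate 6, with 6.79, 7.65 and 8.01 in Zbtb32-/- and 6.99, 7.58 and 7.76 in wild-type arrays. Its difference was 0.09 (-0.33 to 0.51) and turned to -0.01 without wild-type replicate 2, against 0.25 without Zbtb32-/- replicate 6. The kinetochore motor Cenpe differed by 0.58 (0.07 to 1.09). Cenpa, the histone H3 variant that marks centromeres, differed by 0.24 (-0.05 to 0.53). Of the inner kinetochore genes Cenph, Cenpi, Cenpk and Cenpn, with differences of 0.29, 0.16, 0.33 and 0.32, Cenpn varied most between arrays, at 6.82 to 9.30 in Zbtb32-/- and 5.96 to 8.69 in wild-type arrays.

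Chromosomal passenger genes, whose 4 products correct faulty attachments and move to the midzone at anaphase, differed by 0.36 (SE 0.10). Their mean was 9.60 ± 0.13 in Zbtb32-/- and 9.24 ± 0.21 in wild-type cells, and 4 of 6 Zbtb32-/- arrays lay above the highest wild-type array. Cdca8, which encodes borealin, had 8.82, 9.03 and 9.31 (lowest, median, highest) in Zbtb32-/- arrays, against 8.17, 8.44 and 9.07 in wild-type arrays, a difference of 0.53 (0.20 to 0.85). Birc5, which encodes survivin, had 10.16, 10.58 and 10.72 in Zbtb32-/- and 9.59, 10.13 and 10.54 in wild-type arrays, a difference of 0.45 (0.11 to 0.79). In both genes only the upper wild-type arrays overlapped the Zbtb32-/- values. The scaffold gene Incenp differed by 0.33 (0.04 to 0.61). The kinase gene Aurkb differed by 0.15 (-0.11 to 0.41), and by 0.09 without Zbtb32-/- replicate 3, with 9.89, 9.97 and 10.33 in Zbtb32-/- and 9.66, 9.82 and 10.23 in wild-type arrays.

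Kinesins, the motors that slide microtubules or shorten their ends, had 8 positive differences of 8, and 0 at an unadjusted p under 0.05. Their mean was 8.41 ± 0.12 in Zbtb32-/- and 8.13 ± 0.25 in wild-type cells, a difference of 0.27 (SE 0.11) that was 0.15 without wild-type replicates 2 and 6. Kif4, a chromokinesin that also acts at the midzone, had 7.14, 7.76 and 8.04 in Zbtb32-/- and 6.79, 7.36 and 7.76 in wild-type arrays, with a difference of 0.36 (-0.04 to 0.76). Kif11, the motor that pushes spindle poles apart, had 9.61, 9.82 and 9.96 in Zbtb32-/- and 8.98, 9.70 and 9.80 in wild-type arrays, a difference of 0.26 (-0.06 to 0.57) that was 0.14 without wild-type replicate 6, the lowest array. Kif15, which can share the task of Kif11, had 7.89, 8.42 and 8.83 in Zbtb32-/- and 7.72, 8.24 and 8.52 in wild-type arrays, a difference of 0.21 (-0.17 to 0.59) that was 0.12 without wild-type replicate 2 or Zbtb32-/- replicate 4 and 0.03 without wild-type replicates 2 and 6. The groups overlapped in all 3. Among the others, the midzone motors Kif20a and Kif23 differed by 0.24 and 0.32, the microtubule depolymerase Kif2c by 0.34, Kif18a, which dampens chromosome movements, by 0.29, and the chromokinesin Kif22 by 0.18.

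Spindle pole and spindle assembly genes differed by 0.35 (SE 0.10), at 9.45 ± 0.10 in Zbtb32-/- and 9.10 ± 0.22 in wild-type cells, with 5 of 5 positive and 4 at an unadjusted p under 0.05. Tubg1, the gamma tubulin from which spindle microtubules grow, ran from 9.90 over a median of 10.06 to 10.10 in Zbtb32-/- arrays and from 9.09 over 9.53 to 9.87 in wild-type arrays. The groups did not overlap, and the difference was 0.51 (0.23 to 0.79). Nusap1, a microtubule-bundling protein, had 9.80, 9.90 and 10.25 in Zbtb32-/- and 9.34, 9.55 and 9.997 in wild-type arrays, a difference of 0.37 (0.07 to 0.67). Aurka, the kinase of spindle poles, had 8.30, 8.66 and 8.90 in Zbtb32-/- and 7.94, 8.28 and 8.86 in wild-type arrays, a difference of 0.33 (-0.01 to 0.67). Tpx2, which activates the Aurka protein, differed by 0.31 (0.003 to 0.62), and Tacc3, which stabilises spindle fibres, by 0.25 (0.01 to 0.50).

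Cytokinesis genes had the widest spread in wild-type cells. Their mean was 7.96 ± 0.11 in Zbtb32-/- and 7.51 ± 0.48 in wild-type cells, a difference of 0.45 (SE 0.20) that was 0.25 without wild-type replicates 2 and 6 and 0.31 with the mean of erythroid markers as a covariate. Racgap1, part of the centralspindlin complex that marks the plane of cleavage, had 8.68, 8.90 and 9.33 in Zbtb32-/- and 7.28, 8.36 and 9.03 in wild-type arrays, with its lowest value in wild-type replicate 4 and a difference of 0.66 (0.07 to 1.25). Prc1, which bundles the midzone, had 6.96, 7.18 and 7.59 in Zbtb32-/- and 5.68, 6.68 and 7.40 in wild-type arrays, with its lowest value in wild-type replicate 2 and a difference of 0.59 (0.05 to 1.13) that was 0.39 without that array. Anln, the anillin of the contractile ring, overlapped, with 6.79, 7.36 and 7.84 in Zbtb32-/- and 6.30, 7.28 and 7.61 in wild-type arrays, and its difference of 0.23 (-0.26 to 0.73) was 0.07 without wild-type replicate 4, 0.14 without wild-type replicate 2 and 0.13 on leaving out Zbtb32-/- replicate 6. Ect2, the exchange factor that activates RhoA, differed by 0.34 (-0.20 to 0.87).

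Condensin and chromosome structure genes had the smallest subgroup difference, 0.22 (SE 0.07), at 9.82 ± 0.11 in Zbtb32-/- and 9.60 ± 0.12 in wild-type cells. All 7 were positive and 2 had an unadjusted p under 0.05, and 5 of 6 Zbtb32-/- arrays lay above the highest wild-type array. Smc4, an ATPase of condensin, had 10.004, 10.15 and 10.38 in Zbtb32-/- and 9.71, 9.89 and 10.08 in wild-type arrays, a difference of 0.29 (0.07 to 0.51). Mki67, which encodes the proliferation marker Ki-67 of the chromosome surface, had 11.84, 11.99 and 12.14 in Zbtb32-/- and 11.69, 11.76 and 12.01 in wild-type arrays. The difference of Mki67 was 0.20 (0.04 to 0.37), with a single high wild-type array, replicate 1. Ncapg, a regulatory subunit of condensin I, had 9.08, 9.35 and 9.42 in Zbtb32-/- and 9.06, 9.21 and 9.40 in wild-type arrays, a difference of 0.09 (-0.14 to 0.32) that was -0.02 with renewed quantile normalization, 0.14 without Zbtb32-/- replicate 2 and 0.06 on leaving out wild-type replicate 3. Smc2, Ncapd2 and Ncaph of the same complex differed by 0.28, 0.26 and 0.15. Top2a, the topoisomerase that untangles sister chromatids, differed by 0.28 (-0.04 to 0.61) by its main probe set, while a further probe set of low signal gave -0.27 (3.84 in Zbtb32-/- and 4.10 in wild-type arrays). The standard errors of the 8 subgroup differences overlapped, and differences between subgroups were not tested.

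**Figure D2:**
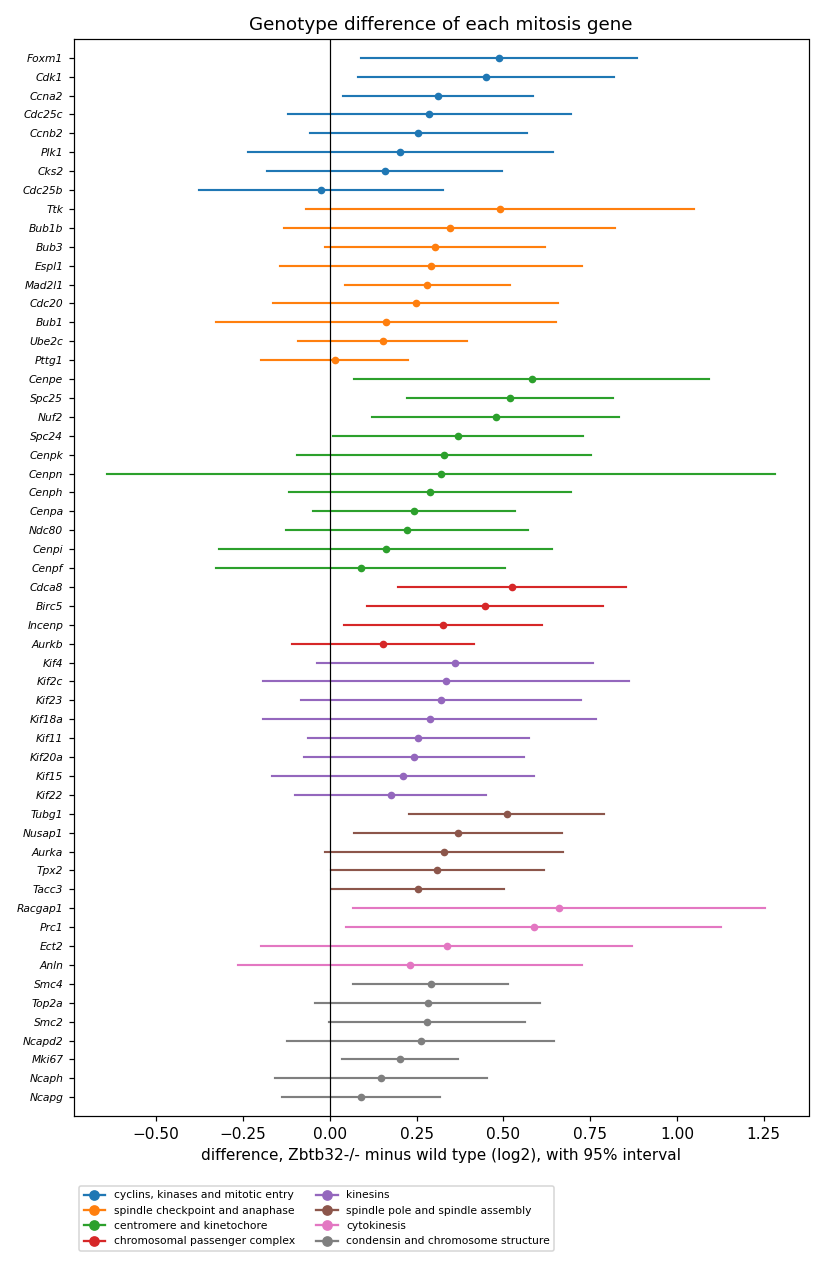
Difference between genotypes for each of the 56 mitosis genes (x axis, Zbtb32-/- minus wild type, log2), with points for the limma estimate and lines for the 95% interval, coloured by subgroup. All points but that of Cdc25b lie right of 0, 19 intervals lie wholly right of 0, and the widest interval is that of Cenpn, from -0.64 to 1.28.

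A few wild-type arrays set much of the spread. For 53 of the 56 genes the lowest of the 12 values was in a wild-type array, against 62.8% of all genes tested, and for 47 it was in wild-type replicate 2, 4 or 6 (16, 14 and 17 genes), against 38.6% of all genes. The highest value was in a Zbtb32-/- array for 47 genes, against 41.1% of all genes. Within the wild type, replicate 3 held the highest value of 36 genes, and within Zbtb32-/- cells replicate 6 held the lowest value of 23. The mitosis mean of the arrays, in the order of replicates 1 to 6, was 8.96, 8.83, 8.99, 8.98, 8.96 and 8.74 in Zbtb32-/- cells and 8.76, 8.45, 8.97, 8.48, 8.61 and 8.40 in wild-type cells. In the same order, the median over all genes tested was 7.128, 7.18, 7.131, 7.041, 7.086 and 7.081 in Zbtb32-/- cells. In wild-type cells it was 7.154, 7.013, 7.193, 7.054, 7.081 and 7.005. Replicates 3 and 6 were thus at the top and bottom of the wild type in both measures. Zbtb32-/- replicate 4 had the smallest median of its genotype and a high mitosis mean. The part of whole-array shifts in this spread was not tested. The SD was larger in wild-type than in Zbtb32-/- arrays for 42 of the 56 genes (75.0%), close to the 69.9% over all genes. The median SD of a gene over the 12 arrays was 0.33, and 0.23 after each array's mitosis mean was subtracted.

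**Figure D3:**
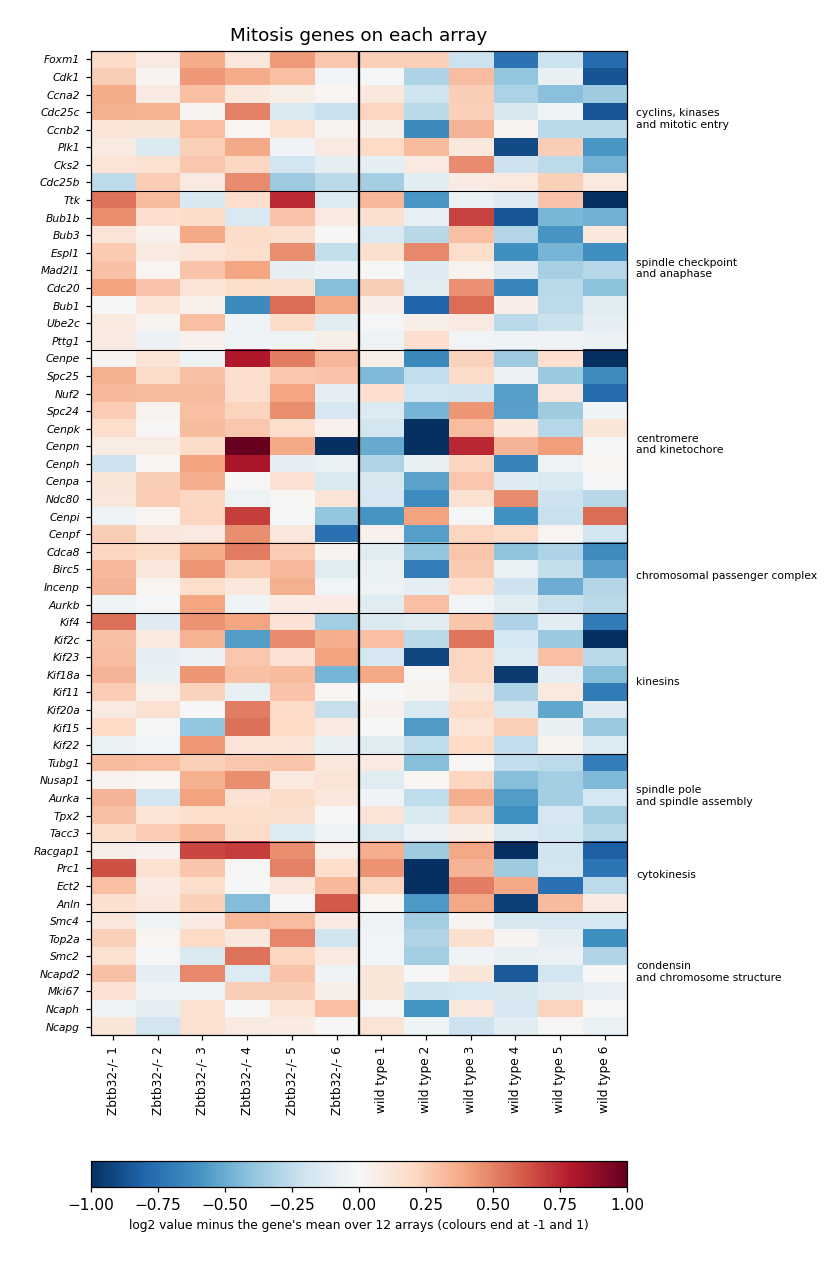
Each mitosis gene (rows, by subgroup) on each array (columns, Zbtb32-/- left of the black line, wild type right), coloured by the log2 value minus the gene's mean over the 12 arrays. In wild-type replicates 2, 4, 5 and 6, 44, 46, 43 and 47 of the 56 genes lie below their own mean (blue), while wild-type replicate 3 is mostly red.

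The labels number the replicates 1 to 6 in each genotype, and arrays 1 to 3 differ from arrays 4 to 6 in many genes. With genotype in the model, 977 of 14993 genes passed an adjusted p of 0.05 between these sets (limma, 6.52%), which the labels do not name as batches. Among the mitosis genes 0 passed, the smallest adjusted p being 0.0658 for Cdc20, which differed by -0.47 (replicates 4 to 6 minus 1 to 3). They lay lower in replicates 4 to 6 for 43 of 56 genes (61.2% of all genes) and by a median of -0.14, against -0.06 over all genes. Among the 9969 genes of the stricter filter, 68.9% were lower and the median was -0.13, close to that of the mitosis genes. At an unadjusted p under 0.05, 7 of the 56 were lower in replicates 4 to 6, against 17.8% of all genes. The size of this shift changed with the scaling, for these genes and for all genes. With renewed quantile normalization 33 of 56 genes were lower (54.9% of all genes), with a median of -0.02, against -0.03 over all genes. With median centring 37 were lower (48% of all genes), with a median of -0.07, against 0.01 over all genes. Without wild-type replicate 3 the median was -0.07, against -0.06 over all genes. The means of the cell type marker lists, described below, also differed between the sets (replicates 4 to 6 minus 1 to 3). Neutrophil, monocyte and macrophage, and B cell markers differed by 1.33, 0.77 and 0.60, and T and NK cell and early progenitor markers by 0.38 and 0.35. Plasma cell and erythroid markers differed by -0.38 and -0.29. The part of these markers in the set shift was not tested. Leaving out a single array brought Cdc20 past the threshold without Zbtb32-/- replicate 4 (-0.54, adjusted p = 0.0454) or 5 (-0.53, adjusted p = 0.0471), Espl1 without Zbtb32-/- replicate 5 (-0.55, adjusted p = 0.0467) and Ccna2 without wild-type replicate 2 (-0.35, adjusted p = 0.0491).

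The genotype difference of the mitosis mean was 0.20 in replicates 1 to 3 and 0.40 in replicates 4 to 6 (3 arrays of each genotype in each set). Positive differences were found in 53 of 56 genes in each set, against 50.9% and 54.1% of all genes, and in 50 genes in both sets, against 30.8%. The genes outside this pattern were Plk1, Espl1 and Pttg1, negative in replicates 1 to 3, and Cdc25b, Cenpf and Cenpn, negative in replicates 4 to 6. The difference was larger in replicates 4 to 6 for 45 of 56 genes (52.5% of all genes), but 0 passed the limma test of the interaction (0% of all genes, adjusted p of 0.998 for each member). At an unadjusted p under 0.05 the interaction held Espl1, Foxm1, Racgap1 and Nusap1, with 0.81, 0.72, 1.07 and 0.54 more in replicates 4 to 6, 4 of 56 against 2.47% of all genes. The kinetochore subgroup was the only one that did not follow, at 0.34 in replicates 1 to 3 and 0.32 in replicates 4 to 6, while checkpoint and anaphase genes had 0.11 and 0.40, mitotic entry genes 0.13 and 0.40 and cytokinesis genes 0.30 and 0.61 in the same order. Kinesins had 0.14 and 0.40, spindle pole genes 0.22 and 0.49, passenger genes 0.26 and 0.47 and condensin genes 0.14 and 0.30. Whether the subgroups differ in this was not tested.

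**Figure D4:**
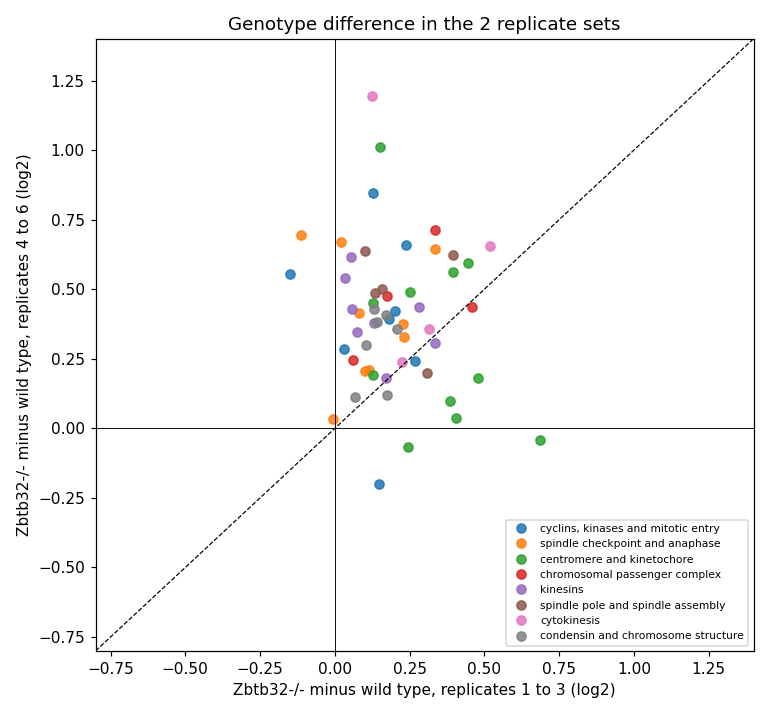
Genotype difference of each mitosis gene (Zbtb32-/- minus wild type, log2) in replicates 4 to 6 (y axis) against replicates 1 to 3 (x axis), coloured by subgroup, with the dashed line of equal differences. Most points lie above the dashed line, 45 of 56, and 50 are positive on both axes.

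Differences of other cell division genes are given beside these, and differences between the lists were not tested. For the counts below, the shares over all genes tested were 52.9% positive and 2.83% positive at an unadjusted p under 0.05. Of 94 further mitosis genes, 91 were measured, with a median difference of 0.27, 79 of them positive, 16 positive at an unadjusted p under 0.05 and 0 past the adjusted threshold. Mybl2, the B-Myb protein that activates CHR promoters, had 8.30, 8.54 and 8.82 in Zbtb32-/- and 7.75, 8.07 and 8.34 in wild-type arrays, a difference of 0.51 (SE 0.15), and Pmf1, a kinetochore protein, differed by 0.56 (SE 0.17). In the DNA replication list 45 of 49 measured genes were positive, with a median of 0.28, 15 positive at an unadjusted p under 0.05 and 0 past the adjusted threshold. Pola2, a subunit of DNA polymerase alpha, differed by 0.48 (SE 0.14), and Tyms, the thymidylate synthase, by 0.62 (SE 0.18). The replication mean differed by 0.28 (SE 0.10), against 0.30 (SE 0.10) for the mitosis genes. Of 17 genes for G1 cyclins, kinases and E2F, 13 were positive, with a median of 0.12 and 0 at an unadjusted p under 0.05, and the smallest p were those of E2f8 and Cdc25a, which differed by 0.48 (SE 0.23) and 0.40 (SE 0.20).

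Dividing cells of other lineages also carry mitosis transcripts, so their markers are given beside these values. Erythroid markers, 11 of 14 measured, had a mean that ran from 6.89 to 7.58 in Zbtb32-/- and from 6.41 to 8.02 in wild-type arrays, and differed by 0.26 (SE 0.25), with 10 of 11 positive. Wild-type replicate 3, the wild-type array with the highest mitosis mean, had the highest erythroid mean, and wild-type replicate 2 the lowest. In the order of replicates 1 to 6, the erythroid mean was 7.296, 7.58, 7.549, 6.889, 7.075 and 7.355 in Zbtb32-/- arrays. In wild-type arrays it was 7.003, 6.408, 8.019, 7.142, 6.806 and 6.822 in the same order. Zbtb32-/- replicate 4, the lowest of its genotype, had a mitosis mean of 8.98, and wild-type replicate 6 had the lowest mitosis mean (8.40). With the erythroid mean as a covariate the mitosis difference was 0.24 (SE 0.09). At an unadjusted p under 0.05, 10 of 56 genes were then positive, in place of 19. Over all genes the same share was 1.37%, in place of 2.83%. Of these genes, the erythroid transcription factor Klf1 lay between 6.05 and 6.85 in Zbtb32-/- and between 5.97 and 6.80 in wild-type arrays. Stronger members, chosen after their values were seen, were Car1, a carbonic anhydrase, with 9.14, 9.56 and 10.38 (lowest, median, highest) in Zbtb32-/- and 6.25, 9.02 and 10.36 in wild-type arrays, and Slc4a1, the anion exchanger of red cells, with 6.78, 8.67 and 9.33 in Zbtb32-/- and 6.699, 7.90 and 9.69 in wild-type arrays. They differed by 0.98 and 0.48, and Ermap and Rhd by 0.36 and 0.34. Markers of early progenitors (8 of 8 measured) ran from 6.78 to 7.43 in Zbtb32-/- and from 6.60 to 7.54 in wild-type arrays, with a difference of -0.08 (SE 0.17). Neutrophil markers (10 of 10) ran from 9.16 to 12.39 and from 7.93 to 11.24 in the same groups. They differed by 0.39 (SE 0.67), with 10 of 10 positive. Monocyte and macrophage markers (8 of 10) ran from 6.90 to 8.41 and from 6.76 to 8.62. They differed by -0.13 (SE 0.38), with 1 of 8 positive. Both lists were high in Zbtb32-/- replicate 6, the lowest Zbtb32-/- array for mitosis genes. With these 2 lists as a covariate the mitosis difference was 0.31 (SE 0.10). B cell markers (8 of 9) ran from 7.09 to 7.85 in Zbtb32-/- and from 6.83 to 8.28 in wild-type arrays, with a difference of -0.27 (SE 0.28) that was 0.08 in replicates 1 to 3 and -0.62 in replicates 4 to 6. Only 2 of these 8 were positive, against 52.9% of all genes. Bach2 (-0.70) and Ccr7 (-0.44) had an unadjusted p under 0.05, which 1.45% of all genes had with a negative difference. The range of T and NK cell markers (8 of 11 above the filter on low values) was 5.89 to 6.38 in Zbtb32-/- and 5.93 to 7.12 in wild-type arrays. They differed by -0.19 (SE 0.20), with 1 of 8 positive. Wild-type replicate 6, the lowest array for mitosis genes, stood at 7.12, above the next value of 6.43. RMA values have no true 0, so none of these markers can be called absent, and beyond the covariate values their part in the mitosis difference was not tested.

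**Figure D5:**
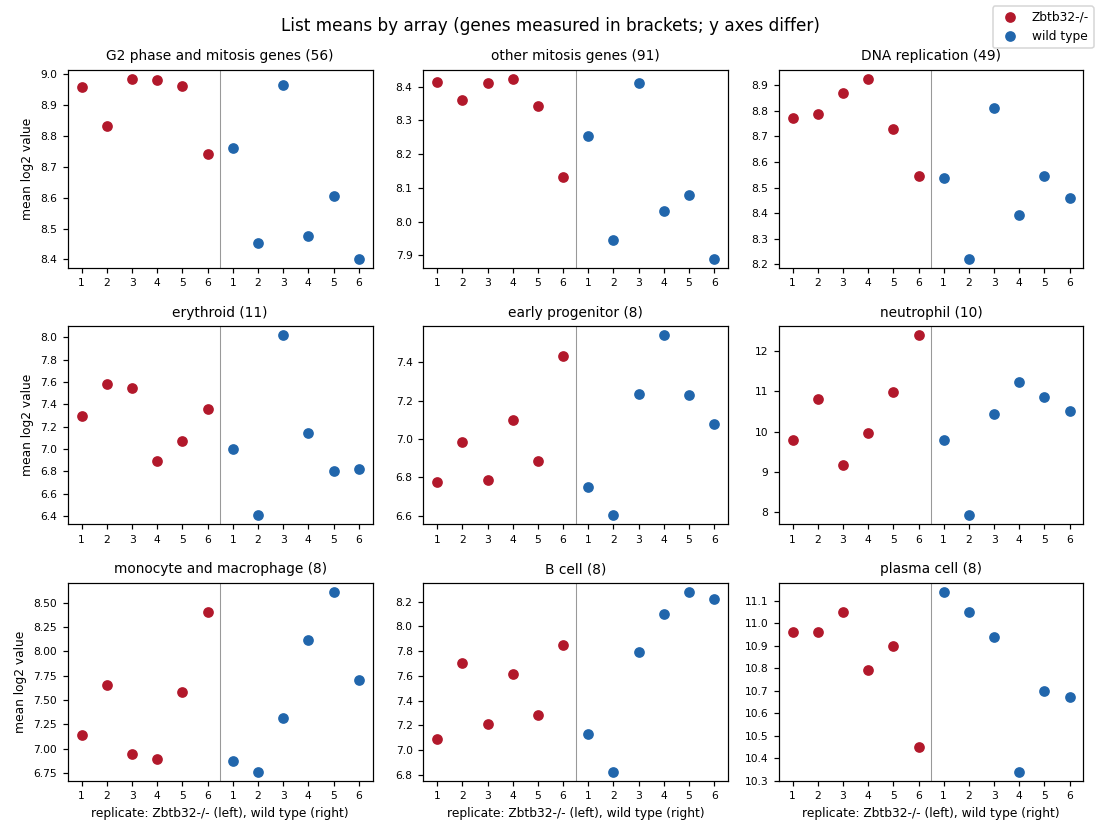
Mean log2 RMA value (y axis, a scale of its own in each panel) of the mitosis genes, 2 other lists of cell division and 6 marker lists on each array, with Zbtb32-/- replicates 1 to 6 in red at the left and wild-type replicates 1 to 6 in blue at the right. Wild-type replicate 3 stands high in the mitosis, replication and erythroid panels, while Zbtb32-/- replicate 4 is high for mitosis and the lowest of its genotype in the erythroid panel. Zbtb32-/- replicate 6 stands at the low end of its genotype in the first 3 panels and high in the neutrophil panel.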

How the data were processed

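RNA of 6 Zbtb32-/- and 6 wild-type samples had been hybridised to 1 Affymetrix array each. The deposited values are log2 signals, and the submitters' processing notes name RMA and Affymetrix Expression Console without a version. This method makes the distributions of arrays alike and compresses low values, so a difference in total RNA is hidden. The amplification kit named in the labels' protocols serves small RNA inputs, which can widen the spread between arrays.

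Of 35556 probe sets, 21789 name 1 gene, 1621 several and 12146 none in the platform annotation. A gene was represented by its brightest probe set among those naming it alone, and genes at or below the 25th percentile of single-gene probe sets (5.49) were left out. Genotype was tested over all 14993 genes with limma 3.58.1 in R 4.3.3 (lmFit, eBayes with a trend), with Benjamini-Hochberg adjustment and a threshold of 0.05. The replicate set and its interaction with genotype were tested in the same way. Where the labels do not name separate animals for a group, p-values measure the spread between these samples. Subgroup and list means carry standard errors over arrays and no p. Python 3.11.15 and matplotlib 3.10.9 drew the plots.

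The members and lists were chosen with earlier results of these data known. In each subgroup the 2 genes with the smallest p and the gene with the largest p are given in full, in the other lists the 2 with the smallest p. Promoters shown are those of the gene with the smallest p in each subgroup where the table holds it. Same-numbered arrays of the genotypes did not deviate together in every pair (correlations of 0.02 to 0.47 over genes), so the numbers were not taken as pairs.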

Additional observations from a re-analysis of the deposited data

Results flagged for a closer look

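A single array lay apart from the other 5 of its genotype in 4 of the 68 sets of 6 values checked with Dixon's ratio (95% level), and chance alone gives about 1 in 20. Cenpf had 6.79 in Zbtb32-/- replicate 6, against 7.63 to 8.01 in the other Zbtb32-/- arrays. Aurkb had 10.33 in Zbtb32-/- replicate 3, against 9.89 to 10.01 in the others. Pttg1 had 8.78 in wild-type replicate 2, against 8.55 to 8.58 in the others, although this array was low for most mitosis genes. Mki67 had 12.01 in wild-type replicate 1, against 11.69 to 11.81 in the others.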

How the results depend on the processing

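The mitosis mean and the 8 subgroup means stayed positive under all alternatives. Over replicates 1 to 3 the checkpoint, entry, kinesin and condensin means were 0.11, 0.13, 0.14 and 0.14. Leaving out single arrays gave 0.26 to 0.37 for the mitosis mean. With renewed quantile normalization it was 0.22, and the entry and condensin subgroups had 0.17 and 0.11. No mitosis gene passed the adjusted genotype test in any setting. Over all genes the genotype count was 0, except 1 (Rny1) over replicates 4 to 6 alone. The count between replicate sets was 585 with renewed quantile normalization, 635 with median centring and 1579 with no filter, and 240 to 1193 on leaving out arrays, with 0 to 2 mitosis genes. The interaction count was 0 to 1 on leaving out arrays (Uty without Zbtb32-/- replicate 1, Lce6a without Zbtb32-/- replicate 6 or wild-type replicate 4). The Zbtb32 difference was 0.021 over replicates 1 to 3, -0.17 without wild-type replicate 3 (two-sided exact permutation p = 0.0238) and otherwise up to -0.069 on leaving out arrays. Cdc25b was 0.15 over replicates 1 to 3 and -0.12 to 0.044 on leaving out arrays. Pttg1 was -0.074 with quantile normalization, -0.011 with median centring, -0.0074 over replicates 1 to 3 and -0.003 to 0.049 on leaving out arrays. Cenpf was -0.066 over replicates 4 to 6, -0.013 to 0.25 on leaving out arrays and -0.075 without wild-type replicates 2 and 6, and Ncapg was -0.021 with quantile normalization. With the replicate number as a block (replicate block), 24 of 56 genes were positive at an unadjusted p under 0.05 in place of 19. Over all genes this share was 4.3% in place of 2.83%, and 0 mitosis genes passed after adjustment. The deviations of same-numbered arrays from their genotype means correlated at 0.02 to 0.47 over genes, and not every array matched its own number best. The setting without wild-type replicates 2 and 6 was chosen after seeing the data. The causes of these changes were not tested. With 6 arrays a group, the median 95% interval of a mitosis gene reached 0.35 to either side.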
